A study of Mus musculus with 12 samples.

Results

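Limbs of mouse embryos that lack Lmx1b were compared between 12.5 and 13.5 days post coitum (dpc). Of the 12 arrays in the series, 4 were chosen by their titles, the 2 knockout (KO) arrays of each of these stages. All embryos were of the C57BL/6 strain. The KO embryos carried the genotype Lmx1b -/-, and the wild-type (WT) embryos used for comparison, with 2 arrays at each stage, carried Lmx1b +/+. The sources used here do not say how the allele was made. KO samples were labelled as the handplate phase at 12.5 dpc and the finger separation phase at 13.5 dpc. Every array was hybridised with a pool of RNA from several limbs, and the arrays of a group came from different embryos. The sample labels put 6 limbs in every pool, whereas the series text puts 3 in the pools of 12.5 dpc, and the difference could not be settled here. Forelimbs and hindlimbs were both used, and no label says in which proportion. The dissection changed with stage. The limb bud and its girdle were taken at 12.5 dpc, and at 13.5 dpc only the distal limb, which the series text describes as zeugopod and autopod and the sample labels as handplate, a difference that could not be settled here. The values are log2 expression values made by the authors with RMA, so a difference of 1 is a 2-fold change, and pairs of values are given as replicate 1 and then replicate 2.

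Lmx1b encodes a LIM homeodomain transcription factor of the dorsal limb mesenchyme, where it acts downstream of Wnt7a from the dorsal ectoderm, and limbs without it develop ventral structures on both faces. During the interval studied here the handplate forms digit rays, the tissue between the rays starts to regress, cartilage and joints take shape, and muscle precursors that migrated from the somites fuse into fibres. Along the proximodistal axis, Meis genes mark the proximal limb, Hoxa11 the zeugopod and Hoxa13 the autopod, and Tbx5 marks the forelimb where Pitx1 and Tbx4 mark the hindlimb.

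The replicate pairs of KO limbs at 12.5 and 13.5 dpc stood further apart than those of the other groups. Across 18193 genes the root mean square difference between replicates was 0.356 log2 units at 12.5 dpc and 0.267 at 13.5 dpc, against 0.140 to 0.237 in the other 4 groups. At 12.5 dpc 353 genes differed at least 2-fold between the KO replicates, and at 13.5 dpc 75 did, against 4 to 26 in the other 4 groups. Hspa1a, an inducible heat shock chaperone, lay at 5.13 and 9.36 in the KO arrays of 12.5 dpc and at 5.44 and 5.35 in those of 13.5 dpc, so that the second array of 12.5 dpc stood alone. Meis1 lay at 8.32 and 7.96 at 12.5 dpc, then at 7.76 and 9.46 at 13.5 dpc, and there the second array of 13.5 dpc was the high one. The embryonic globin gene Hbb-bh1 was likewise higher in both replicate 2 arrays (12.90 and 13.86, then 10.48 and 12.91). Xist, transcribed from the inactive X chromosome, lay at 6.49 and 12.45 at 12.5 dpc, then at 12.78 and 12.50 at 13.5 dpc. The Y-linked Eif2s3y ran the other way (8.48 and 3.96, then 2.89 and 4.65), so the first array of 12.5 dpc differed from the other 3 in both sex-linked genes. Without both replicate 2 arrays, Xist changed by 6.29 and Eif2s3y by -5.59 between the stages. In WT, all 4 measured sex-linked genes lay above the median of all values (6.28) in both arrays of 12.5 dpc. In each WT array of 13.5 dpc 1 of them did. The median change of this list, which holds both Xist and Eif2s3y, was -2.99 in WT and -1.73 in KO limbs. The part of sex, heat shock transcripts or dissection in the changes described here was not tested. Stage, dissected part and scan series cannot be told apart in either genotype. Nor can the sex-linked difference, in WT with all arrays and in KO limbs where both replicate 2 arrays are left out.

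**Figure D1:**
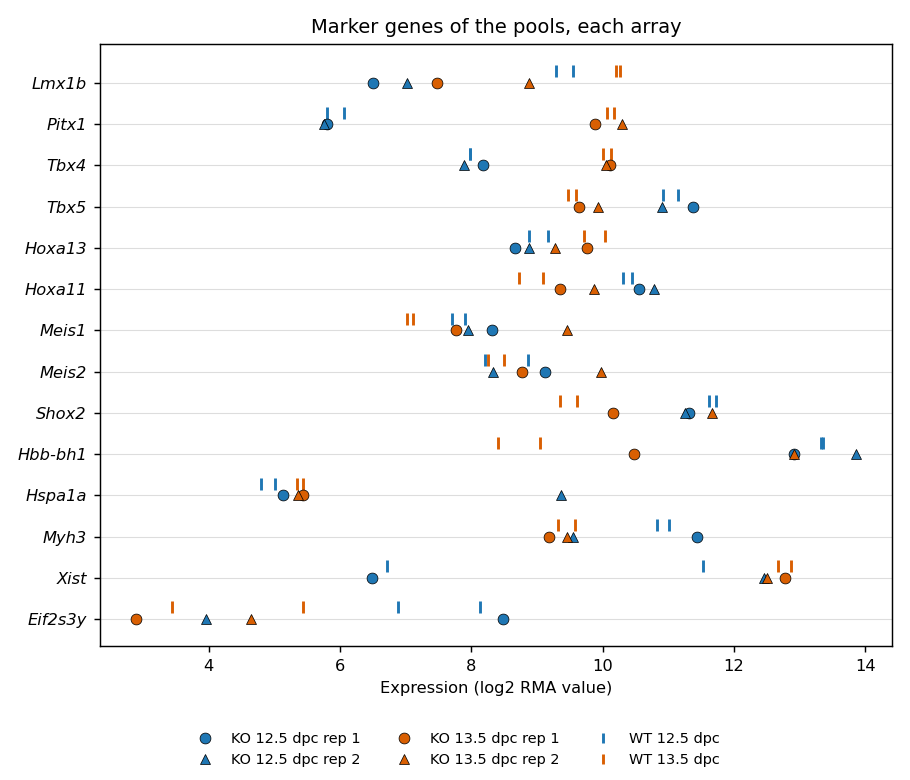
Log2 RMA values (horizontal axis) of 14 marker genes in each KO array of 12.5 dpc (blue) and 13.5 dpc (orange), with circles for replicate 1 and triangles for replicate 2. Vertical ticks above each row are the WT arrays in the same colours. Pitx1 separated the stages in both genotypes, whereas Meis1 (9.46), Hspa1a (9.36) and Xist (6.49) each had a single KO array away from the rest.

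Between 12.5 and 13.5 dpc, 3382 of 18193 genes changed in KO limbs (18.6%; limma, Benjamini-Hochberg adjusted p under 0.05), 1887 of them higher (10.4%) and 1495 lower (8.22%) at 13.5 dpc. A change is called here only where it passed this test. Counts of list members below are to be set beside the shares of all genes called, 10.4% higher and 8.22% lower. Changes of at least 2-fold were found for 116 genes that rose and 66 that fell. In all 3382 the arrays of the stages did not overlap, which was so for 9516 genes (52.3%) in all, 5394 of them higher (29.6%) and 4122 lower (22.7%) at 13.5 dpc. The median change over all genes was 0.04. Without both replicate 2 arrays, 4489 genes passed (24.7%), 2069 higher (11.4%) and 2420 lower (13.3%). Of the 3382 genes, 2429 passed in the same direction there, and 0 had the opposite sign. Without the first array of 13.5 dpc, 1554 genes passed.

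Of the 12 genes that rose furthest, 3 are limb type genes. Pitx1, the homeodomain factor that specifies the hindlimb, lay at 5.81 and 5.76 at 12.5 dpc, then at 9.88 and 10.30 at 13.5 dpc. The groups lay far apart, and the rise of 4.30 ± 0.15 (SE, n = 2 arrays per stage), 19.7-fold, was the largest of all genes (limma adjusted p = 5.95e-07). Hoxc10, a HOX gene of the posterior body and the hindlimb, went from 5.00 and 5.93 to 8.78 and 9.71 (3.78 ± 0.33, adjusted p = 0.000434). Tbx4, the hindlimb T-box gene, went from 8.17 and 7.89 to 10.11 and 10.05 (2.04 ± 0.14, adjusted p = 0.000263). Both probe sets of Pitx1 and of Tbx4 rose.

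Tnmd, encoding the tendon membrane protein tenomodulin, rose from 5.72 and 4.64 to 7.32 and 6.70 (1.83 ± 0.30, adjusted p = 0.00423). Dpt, encoding the matrix protein dermatopontin, rose from 5.04 and 4.93 to 7.02 and 6.45 (1.76 ± 0.17, adjusted p = 0.000921). Irx3, an Iroquois homeobox gene, rose by 1.93 ± 0.35 (adjusted p = 0.0064) and by 0.99 without both replicate 2 arrays. The bHLH-PAS gene Sim2 rose by 1.80 ± 0.21, the cytochrome gene Cyb561 by 1.90 ± 0.22 and Klhl42, a ubiquitin ligase adaptor gene, by 1.72 ± 0.19 (adjusted p from 0.000983 to 0.00118).

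For 3 more genes of the top 12 the size and the call of the rise depended on single arrays. The lowest change with 1 KO array left out was 0.90 for Aqp1, 0.84 for Chodl and 1.01 for Stk32b. The water channel gene Aqp1 lay at 7.49 and 5.00, then at 8.75 and 8.04, and its 2.14 ± 0.58 became 0.90 without the second array of 12.5 dpc and lost the call without the first of 13.5 dpc (1.79, adjusted p = 0.18). The lectin gene Chodl lay at 7.59 and 4.99, then at 8.96 and 7.90. Its 2.14 ± 0.63 lost the call without either of the same arrays (adjusted p = 0.106 and 0.239). Stk32b, a kinase gene, rose by 1.85 ± 0.46 and lost the call in the same way (adjusted p = 0.0772 and 0.113). In all 3 the second array of 12.5 dpc was the lowest of the 4.

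Among the 12 genes that fell furthest, 4 belong to muscle fibres (Ttn, Neb, Tnnt2 and Lmod3) and are described with their list. Rfx4, an RFX transcription factor gene, lay at 7.42 and 7.98 at 12.5 dpc, then at 4.77 and 5.14 at 13.5 dpc, the largest fall of all genes (-2.74 ± 0.35, adjusted p = 0.00165). Its other probe set, below the median of all values (6.28), moved by -0.18. Robo2, a receptor for Slit guidance proteins, fell from 6.40 and 6.63 to 4.61 and 4.71 (-1.85 ± 0.19, adjusted p = 0.000977), and its 4 arrays paired closely by stage.

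The non-coding host transcript Snhg14 fell by 1.76 (SE 0.22), the centriole gene Cep295 by 1.62 (SE 0.18) and the transporter gene Slc16a4 by 1.52 (SE 0.17), with adjusted p from 0.000983 to 0.00161. The other Slc16a4 probe set rose (0.63, adjusted p = 0.0443 over all probe sets). Nrk, a kinase gene, fell by 1.45 (SE 0.23, adjusted p = 0.00371), and its other probe sets moved by -1.68 and -0.57. Cnr1, the cannabinoid receptor gene, lay at 8.13 and 7.85 and then at 6.03 and 7.05 (-1.45 ± 0.26, adjusted p = 0.00587), and its fall was 0.94 log2 units (-0.94) without the first array of 13.5 dpc. The unnamed locus LOC102631979 fell by 1.45 (SE 0.31) and lost the call without the second array of 12.5 dpc or the first of 13.5 dpc (adjusted p = 0.0527 and 0.0862).

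**Figure D2:**
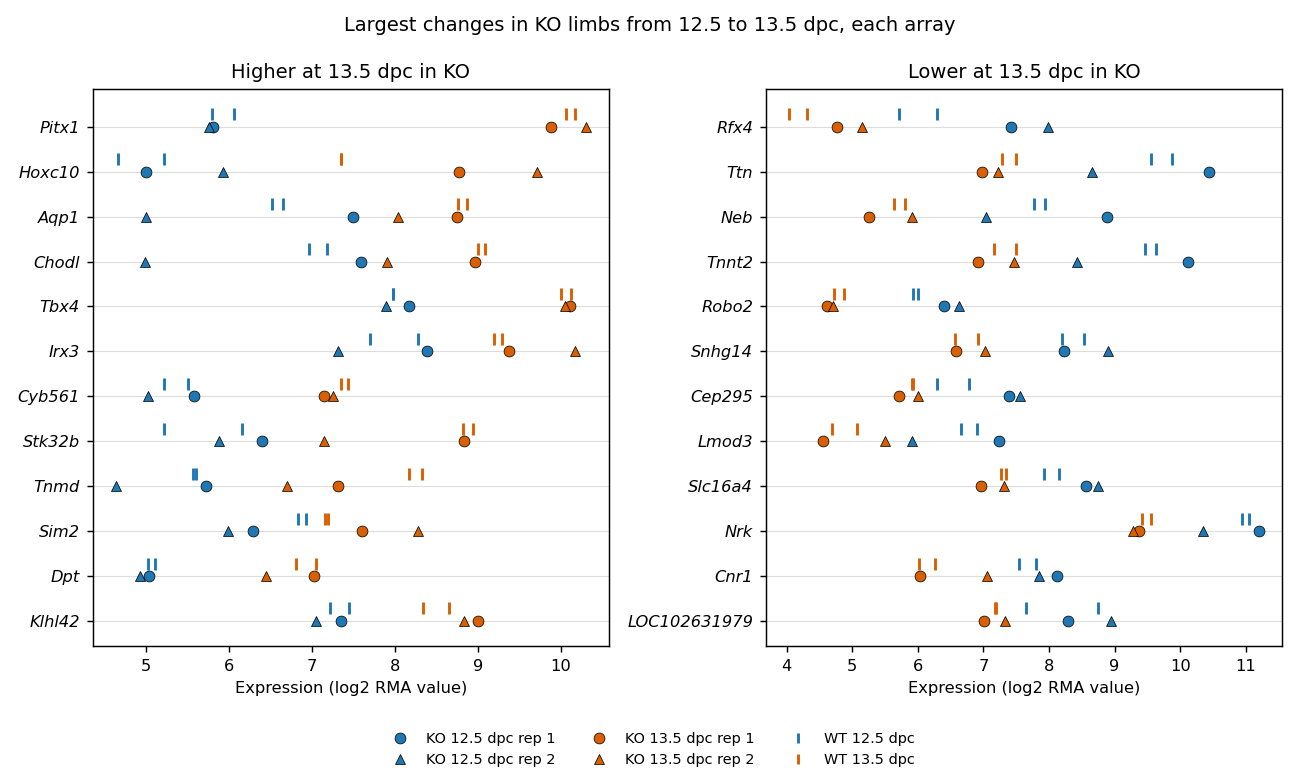
Log2 RMA values (horizontal axis) of the 12 genes with the largest rise (left) and the 12 with the largest fall (right) that passed the test in KO limbs, with each array as 1 point and WT arrays as ticks. KO arrays of the stages do not overlap for any of them, by the way they were chosen; Aqp1 and Chodl show the second array of 12.5 dpc far below the first.

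Limb type genes shifted towards the hindlimb set. Of 6 measured members, 4 rose and 1 fell, against 10.4% and 8.22% of all genes, with a median change of 1.74. Besides Pitx1, Hoxc10 and Tbx4, the hindlimb factor gene Isl1 rose, from 5.47 and 5.26 to 6.19 and 7.43 (1.44 ± 0.31, adjusted p = 0.012), and by 0.82 without the second array of 13.5 dpc. Tbx5, the T-box gene of the forelimb, fell from 11.38 and 10.91 to 9.63 and 9.93 (-1.36 ± 0.19, adjusted p = 0.00234). Its 2 probe sets moved alike (-1.36 and -1.36). In WT limbs Pitx1 changed by 4.18, Tbx4 by 2.09, Hoxc10 by 2.41 and Tbx5 by -1.49 over the same interval, all past the same test. The proportion of forelimb and hindlimb in each pool is not in the labels, and its part in the changes was not tested.

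The genes of the proximal limb did not move together. Of 13 measured proximal and girdle factors, 4 rose and 1 fell (median 0.27), and without both replicate 2 arrays the median was -0.18. Emx2, a homeobox gene needed for the scapula, rose from 5.83 and 6.13 to 7.31 and 8.09 (1.72 ± 0.25, adjusted p = 0.00244). Pax1, a paired-box gene of the girdle and sclerotome, lay at 5.58 and 5.38 and then at 6.32 and 7.88 (1.62 ± 0.38, adjusted p = 0.0175). Its rise was 0.84 without the second array of 13.5 dpc, and it lost the call without the second array of 12.5 dpc (1.53, adjusted p = 0.0557). Its paralogue Pax9 fell from 8.98 and 9.25 to 7.91 and 7.96 (-1.18 ± 0.15, adjusted p = 0.0017), while its 2 other probe sets moved by 0.29 and -0.18. Irx5 rose by 1.22 ± 0.34, but by 0.51 without the second array of 12.5 dpc, where the call ended (adjusted p = 0.0706), as it did without either array of 13.5 dpc (adjusted p = 0.176 and 0.064).

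In Shox2 and the Meis genes the second array of 13.5 dpc was the highest KO array of the interval. Shox2, which the proximal limb skeleton needs, lay at 11.32 and 11.25 at 12.5 dpc, then at 10.16 and 11.66 at 13.5 dpc. The stages overlapped, and the change of -0.38 ± 0.35 did not pass (adjusted p = 0.475). Without both replicate 2 arrays it was -1.16, and without the first array of 13.5 dpc it was 0.37. In WT Shox2 went from 11.62 and 11.72 to 9.61 and 9.35. Meis2 lay at 9.12 and 8.33 and then at 8.77 and 9.97. Neither Meis1 (0.48 ± 0.40, adjusted p = 0.438) nor Meis2 (0.65 ± 0.37, adjusted p = 0.241) passed, and both changes were negative without both replicate 2 arrays (-0.56 and -0.35). Without the second array of 13.5 dpc alone Meis1 was at -0.37 and Meis2 at 0.049.

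Among 10 HOXA and HOXD genes of the 5' cluster ends, 5 fell and 1 rose (median -0.32), against 8.22% and 10.4% of all genes. Hoxa11, the zeugopod gene, fell from 10.55 and 10.79 to 9.35 and 9.87 (-1.06 ± 0.17, adjusted p = 0.00406). Hoxa10, from the same cluster, fell by 0.84 (SE 0.15, adjusted p = 0.00621) and Hoxd10 by 0.61 (SE 0.11, adjusted p = 0.00675). Hoxa13, the autopod gene, rose from 8.66 and 8.88 to 9.76 and 9.27 (0.75 ± 0.19, adjusted p = 0.0245). That call ended without the first array of 12.5 dpc (0.64, adjusted p = 0.0775) or of 13.5 dpc (0.50, adjusted p = 0.167). Hoxd13, also an autopod gene, lay at 12.53 and 12.62 and then at 12.94 and 12.37 and did not pass (0.08 ± 0.17, adjusted p = 0.778). Hoxa9 fell by 0.68 (SE 0.18), and its call ended without the second array of 12.5 dpc (-0.39, adjusted p = 0.117) or the first of 13.5 dpc (-0.58, adjusted p = 0.154).

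Of 19 HOX genes nearer the 3' ends, 1 rose and 1 fell. Hoxd8 fell from 9.60 and 9.69 to 8.51 and 9.01 (-0.88 ± 0.15, adjusted p = 0.00431). Hoxb3 rose from 6.60 and 6.47 to 7.07 and 7.47 (0.73 ± 0.18, adjusted p = 0.023), a call that ended without either replicate 2 array (adjusted p = 0.0738 and 0.104). Over this list the second array of 13.5 dpc lay above the first by a median of 0.90, and the median change went from 0.10 with all arrays to -0.24 without both replicate 2 arrays.

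The targeted gene was read by 2 probe sets. On 1441729_at, Lmx1b lay at 6.50 and 7.02 in KO limbs at 12.5 dpc, then at 7.48 and 8.88 at 13.5 dpc, below all 4 WT arrays (9.29 and 9.55, then 10.27 and 10.19). The KO signal was higher at 13.5 dpc by 1.42 ± 0.35 (adjusted p = 0.0223). The call ended without the second array of 13.5 dpc (0.71, adjusted p = 0.0538) or the first of 12.5 dpc (1.15, adjusted p = 0.0779). On the dimmer 1421769_at the 4 KO arrays lay between 5.46 and 5.88. No source used here says where the deletion lies relative to these probe sets, so neither is a full check of the labels. Of the 10 dorsoventral and LIM homeodomain genes, 1 other changed, and the median was 0.16 with all arrays and 0.21 without both replicate 2 arrays. Lhx9, a LIM factor of distal mesenchyme, fell from 11.07 and 11.64 to 10.49 and 10.59 (-0.82 ± 0.17, adjusted p = 0.00969), which missed the threshold without the first array of 13.5 dpc (adjusted p = 0.0631) and was -0.54 without the second of 12.5 dpc. Wnt7a, the dorsal ectodermal signal, moved by -0.07 ± 0.13 and the ventral ectodermal factor gene En1 by 0.27 ± 0.16, neither past the test.

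Genes of the muscle fibre had the lowest median of the 31 lists plotted. Of 30 measured sarcomere and contraction genes 28 moved down, as did 8116 of all 18193 genes, with a median change of -0.88. The test was passed by 4 of them, against 8.22% of all genes called lower. Without both replicate 2 arrays, which leaves a single KO array per stage, the median was -1.99. In bulk tissue, fewer cells of a type and less RNA per cell cannot be told apart, and the part of the changed dissection was not tested.

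Ttn, encoding the giant sarcomere spring titin, lay at 10.44 and 8.65 at 12.5 dpc, then at 6.97 and 7.22 at 13.5 dpc (-2.44 ± 0.42, adjusted p = 0.00477). The thin filament ruler gene Neb lay at 8.89 and 7.04 and then at 5.26 and 5.91 (-2.38 ± 0.45, adjusted p = 0.00702). Tnnt2, encoding the troponin T that embryonic muscle shares with heart, lay at 10.12 and 8.42 and then at 6.91 and 7.46 (-2.08 ± 0.41, adjusted p = 0.00864). In these 3 genes the stages did not overlap, and the first array of 12.5 dpc was the highest by over 1 log2 unit. Tnnc1, encoding a troponin C, lay at 11.13 and 9.46 and then at 8.90 and 9.07 (-1.30 ± 0.40, adjusted p = 0.0476). Lmod3, a thin filament nucleator gene outside the list, fell from 7.24 and 5.91 to 4.56 and 5.49 (-1.55 ± 0.39, adjusted p = 0.0223).

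The size of this fall depended on the first array of 12.5 dpc. It was the highest of the 4 KO arrays for 28 of the 30 genes, by a median of 1.93 over the mean of the 13.5 dpc arrays. The second array of 12.5 dpc lay above both 13.5 dpc arrays for 9 genes and below both for 9, with a median of 0.02 over their mean. Without the first array of 12.5 dpc, the fall was -1.55 for Ttn, -1.46 for Neb and -1.23 for Tnnt2, all past the test, and -0.47 for Tnnc1 and -0.89 for Lmod3, which did not pass (adjusted p = 0.119 and 0.0746). Without the first array of 13.5 dpc, Neb, Tnnt2, Lmod3 and Tnnc1 missed the threshold (adjusted p from 0.0603 to 0.197), and Tnnc1 also without the second (adjusted p = 0.0971). Myh3, the embryonic myosin heavy chain gene, lay at 11.44 and 9.54 and then at 9.18 and 9.45, and its -1.18 ± 0.44 did not pass (adjusted p = 0.0876). In WT limbs 19 of the 30 genes fell and 1 rose, and for 28 both 12.5 dpc arrays lay above both 13.5 dpc arrays, as for 33.1% of all genes in WT.

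**Figure D3:**
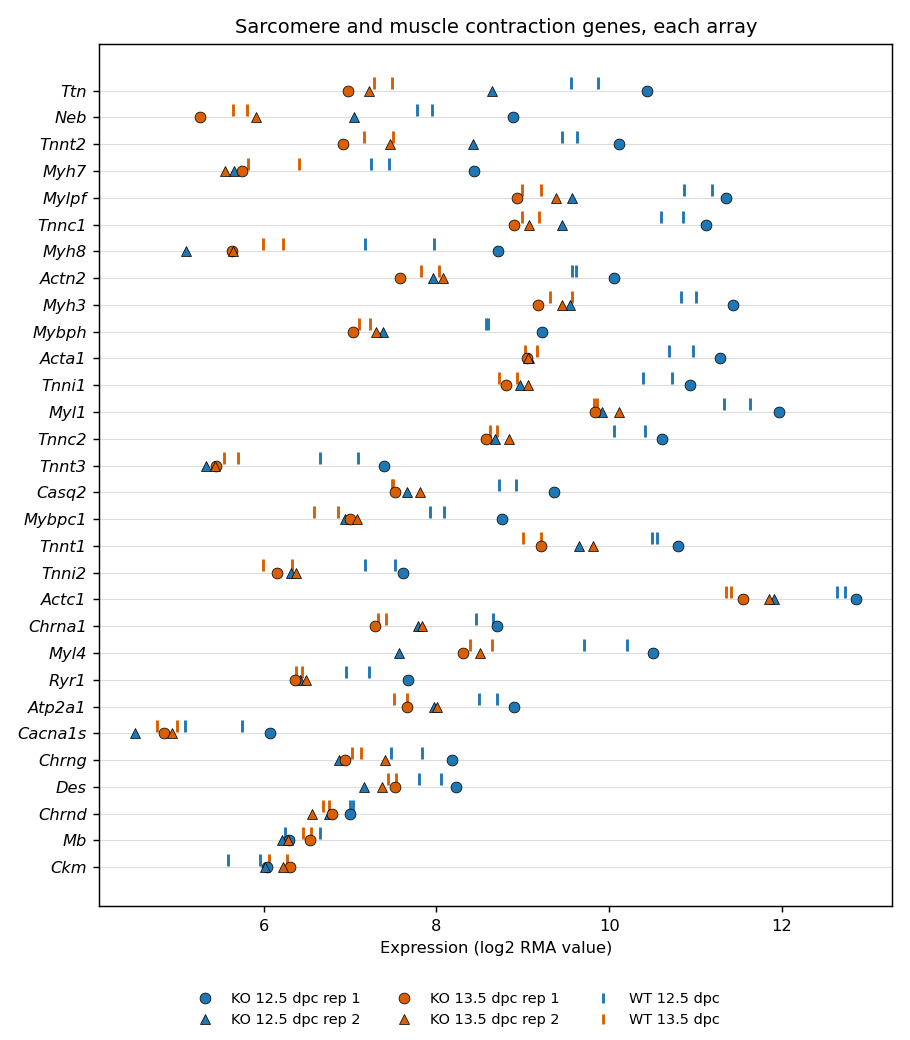
Log2 RMA values (horizontal axis) of the 30 sarcomere and contraction genes in each KO array, sorted by their change, with WT arrays as ticks. The first KO array of 12.5 dpc is the highest KO array for 28 genes, whereas the second lies near the arrays of 13.5 dpc for most genes below the 3 in the top rows.

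The promoters of the 4 list members that passed the test as lower are shown. The size of their fall depended on the first array of 12.5 dpc, and without it Tnnc1 moved by -0.47. Of the 4 (Ttn, Neb, Tnnt2 and Tnnc1), 3 were matched by gene ID to RefSeq promoters of the GRCm38.p6 assembly, and the 250 bases before each start are printed 5′ to 3′ on the gene's strand. Capitals mark the E-box CANNTG, the core bound by MyoD family factors, searched on both strands, which read it alike. The windows are chr1:135836084-135836333 (plus strand) for Tnnt2, chr14:31208062-31208311 (plus strand) for Tnnc1 and chr2:76982548-76982797 (minus strand) for Ttn.
Tnnt2: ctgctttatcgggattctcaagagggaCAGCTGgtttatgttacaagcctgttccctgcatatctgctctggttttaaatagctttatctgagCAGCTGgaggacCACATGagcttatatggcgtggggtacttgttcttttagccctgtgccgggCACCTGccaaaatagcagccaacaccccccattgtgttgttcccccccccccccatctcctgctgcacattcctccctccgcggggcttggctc
Tnnc1: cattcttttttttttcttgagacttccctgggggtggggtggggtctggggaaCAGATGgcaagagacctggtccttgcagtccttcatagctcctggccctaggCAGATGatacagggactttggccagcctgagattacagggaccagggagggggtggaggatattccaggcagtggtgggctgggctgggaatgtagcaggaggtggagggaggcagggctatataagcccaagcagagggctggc
Ttn: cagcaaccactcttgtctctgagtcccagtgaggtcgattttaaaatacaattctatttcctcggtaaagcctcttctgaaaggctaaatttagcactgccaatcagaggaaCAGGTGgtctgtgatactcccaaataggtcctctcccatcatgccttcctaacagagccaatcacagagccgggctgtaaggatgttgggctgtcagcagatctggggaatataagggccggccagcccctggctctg
The Tnnt2 window held 4 E-boxes, that of Tnnc1 held 2, and that of Ttn held 1. An E-box was in 66.0% of 27025 promoter windows of this length, and in 23 of the 26 list members with a promoter in the table (88.5%). These are matches of letters only.

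Myogenic regulators and muscle progenitor genes moved less with all arrays. Of 16 measured, 1 fell (median -0.13), and without both replicate 2 arrays the median was -0.68. Meox2, a homeobox gene of limb muscle precursors, fell from 11.06 and 11.18 to 10.53 and 10.51 (-0.60 ± 0.13, adjusted p = 0.0113), missing the threshold without the first array of 13.5 dpc (adjusted p = 0.051). Myog, which drives myoblast differentiation, lay at 9.26 and 9.93 at 13.5 dpc, below both arrays of 12.5 dpc, and did not pass (-0.94 ± 0.29, adjusted p = 0.0504). Myod1 (10.15 and 9.59, then 9.30 and 9.94) and the satellite cell gene Pax7 (6.89 and 5.56, then 5.74 and 7.08) overlapped between the stages. Without both replicate 2 arrays Myod1 was lower by 0.86 (-0.86) and Pax7 by 1.16 (-1.16).

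Of 22 cartilage genes 1 rose and 0 fell in the limma fit, with a median of 0.12, and without both replicate 2 arrays the median was -0.061. Col9a3, a chain of cartilage collagen IX, went from 10.18 and 9.30 to 11.14 and 10.40 (1.03 ± 0.30, adjusted p = 0.0383), a call that ended without the second array of 12.5 dpc or the first of 13.5 dpc (adjusted p = 0.176 and 0.249), with a replicate block (adjusted p = 0.0506) and with the mean of its probe sets (0.14, adjusted p = 0.7). Another Col9a3 probe set moved by -0.65. Col2a1, the main cartilage collagen gene, lay at 12.94 and 12.46 and then at 13.22 and 12.59 (0.21 ± 0.20, adjusted p = 0.503). Acan, encoding aggrecan, lay at 8.41 and 7.03 and then at 8.51 and 7.76 (0.41 ± 0.38, adjusted p = 0.474), and Sox9, the cartilage master factor gene, moved by -0.04 ± 0.15. In all 22 cartilage genes the second array of 12.5 dpc lay below the first, by a median of 0.87 (-0.87), and in 21 of 22 the second of 13.5 dpc did too, by a median of 0.41 (-0.41).

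Of 14 growth plate and bone onset genes 3 rose (median 0.19). Dlx3, a homeobox gene of bone and epidermis, rose from 6.59 and 6.67 to 7.85 and 7.52 (1.05 ± 0.13, adjusted p = 0.00139). Ihh, the signal of prehypertrophic chondrocytes, lay at 6.73 and 5.34 and then at 7.67 and 7.08 (1.34 ± 0.37, adjusted p = 0.032), but at 0.64 over 12.5 dpc without the second array of that stage (adjusted p = 0.114), and the call also ended without the first of 13.5 dpc (adjusted p = 0.198). Col10a1, the hypertrophic cartilage collagen gene, went from 5.21 and 5.35 to 6.29 and 5.64 (0.68 ± 0.20, adjusted p = 0.0378) and lost the call without any 1 of 3 arrays, the exception being the second of 13.5 dpc (adjusted p from 0.061 to 0.227).

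Joint genes had a median of 0.45 over 14 members, of which 4 rose, against 10.4% of all genes. Osr2, an odd-skipped factor gene of joints and mesenchyme, rose from 8.52 and 8.03 to 9.79 and 9.39 (1.31 ± 0.18, adjusted p = 0.002). Wnt4, a signal of the joint interzone, rose from 8.12 and 7.71 to 8.94 and 8.93 (1.02 ± 0.15, adjusted p = 0.00243). The calls of Wnt9a, another interzone signal (0.69 ± 0.18), and of the hyaluronan receptor gene Cd44 (0.51 ± 0.14) ended without the second array of 12.5 dpc (adjusted p = 0.112 and 0.12) or the first of 13.5 dpc (adjusted p = 0.129 and 0.158), and that of Wnt9a without the second of 13.5 dpc as well (adjusted p = 0.0534). Gdf5, the joint-inducing growth factor gene, lay at 9.79 and 8.73 and then at 10.68 and 9.75 (0.96 ± 0.34, adjusted p = 0.0762).

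Of 16 tendon and ligament genes 3 rose (median 0.32), against 10.4% of all genes. Besides Tnmd, the protease gene Htra3 rose by 1.05 ± 0.27. Cilp, a cartilage intermediate layer gene whose mean of 4.30 lay below the median of all values (6.28), rose by 0.50 ± 0.14. Both calls ended without the second array of 12.5 dpc (adjusted p = 0.0899 and 0.102) or the first of 13.5 dpc (adjusted p = 0.17 and 0.224), and that of Cilp without the first of 12.5 dpc too (adjusted p = 0.0617). Scx, the tendon progenitor factor gene, lay at 8.14 and 7.57 and then at 7.23 and 7.60 (-0.44 ± 0.20, adjusted p = 0.147), and the tendon factor gene Mkx at 8.41 and 7.60 and then at 9.36 and 8.39 (0.87 ± 0.30, adjusted p = 0.0707). The second array of 12.5 dpc was below the first for all 16 tendon genes. Without both replicate 2 arrays, the tendon median was -0.18.

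In the matrix lists, 1 of 14 small leucine-rich proteoglycan genes rose (2 rose and 3 fell without both replicate 2 arrays), Bgn (10.28 and 9.82, then 10.88 and 10.64; 0.71 ± 0.14, adjusted p = 0.00936), which missed the threshold without the first array of 13.5 dpc (adjusted p = 0.0672). Kera, encoding keratocan, lay at 6.37, 6.34 and 6.27 in 3 arrays and at 7.69 in the second of 13.5 dpc, against 9.88 to 10.12 in the 4 WT arrays. Of 25 other collagen genes 2 rose and 1 fell (median 0.16), and without both replicate 2 arrays the median was -0.17. Col25a1, a membrane collagen gene, fell from 10.84 and 10.23 to 9.81 and 9.71 (-0.78 ± 0.16, adjusted p = 0.0102) and by -0.47 without the first array of 12.5 dpc.

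The WNT list held 10 genes that rose and 1 that fell of 26, against 10.4% and 8.22% of all genes. Its median was 0.18 with all arrays and without both replicate 2 arrays. Dkk1, a secreted WNT inhibitor linked to interdigital cell death, rose from 6.96 and 7.64 to 8.53 and 8.33 (1.13 ± 0.21, adjusted p = 0.00699), and just missed the threshold without the first array of 13.5 dpc (adjusted p = 0.0529). Axin2 and Lef1, which are induced by canonical WNT signalling, rose by 0.51 and 0.34, and missed the threshold without the first array of 13.5 dpc (adjusted p = 0.0812 and 0.158), as did Lef1 without the first of 12.5 dpc (adjusted p = 0.0993). The inhibitor gene Sfrp2 rose by 0.86 and the R-spondin gene Rspo3 fell by 0.83 (adjusted p = 0.00826 and 0.0302). Neither passed without the first array of 13.5 dpc (adjusted p = 0.0504 and 0.136), nor did Rspo3 without the second of 12.5 dpc (adjusted p = 0.112). Dkk3 rose by 0.94, Sfrp1 by 0.89 and Rspo2 by 0.88, and each call ended without some single arrays. Without the second of 12.5 dpc Dkk3 was at 0.42 (adjusted p = 0.131) and Sfrp1 at 0.62 (adjusted p = 0.152), and without the second of 13.5 dpc Sfrp1 was at 0.54 and Rspo2 at 0.53 (adjusted p = 0.173 and 0.184). The calls of Dkk3 without either 13.5 dpc array (adjusted p = 0.201 and 0.0559) and of Rspo2 without the first of 12.5 dpc (adjusted p = 0.156) ended too. With both replicate 2 arrays left out, Rspo2 was at 0.82, Dkk3 at 0.57 and Sfrp1 at 0.27.

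In the hedgehog list 3 of 13 genes rose and 1 fell (median 0.15), against 10.4% and 8.22% of all genes. Gli1, a direct target of hedgehog signalling, rose from 7.73 and 7.41 to 8.68 and 8.63 (1.09 ± 0.11, adjusted p = 0.000921). The limb signal Shh itself lay at 6.69 and 7.26 and then at 6.60 and 7.60, with the replicates further apart than the stages (0.12 ± 0.28, adjusted p = 0.794), whereas in WT it went from 6.95 and 6.94 to 5.85 and 5.68. Hhip, a hedgehog-induced inhibitor gene, lay at 7.18 and 6.55 and then at 7.66 and 6.96 in KO limbs (0.45 ± 0.24, adjusted p = 0.214) and changed by 1.73 in WT. The posterior factor gene Hand2 fell by 0.51 (SE 0.13) and lost the call without the second array of 12.5 dpc or the first of 13.5 dpc (adjusted p = 0.109 and 0.151). Its other probe sets moved by -0.11 and 0.33, and with the mean of them all it did not pass (adjusted p = 0.631). Smo, the hedgehog signal transducer gene, rose by 0.35 ± 0.08 and missed the threshold without the same arrays (adjusted p = 0.0619 and 0.0645).

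Of 19 FGF and apical ridge genes 2 rose and 4 fell (median -0.04), against 10.4% and 8.22% of all genes. Dlx5, a ridge and skeletal homeobox gene, fell from 9.35 and 9.16 to 8.67 and 8.71 (-0.56 ± 0.12, adjusted p = 0.0137), with an adjusted p of 0.0684 without the first array of 13.5 dpc. Dusp6, the feedback phosphatase gene of FGF signalling, fell by 0.81 (SE 0.24), and Etv5, an FGF-induced factor gene, by 0.37 (SE 0.11). Both calls ended without the second array of 12.5 dpc (-0.50 and -0.27, adjusted p = 0.182 and 0.18) or the first of 13.5 dpc (-0.43 and -0.26, adjusted p = 0.257 and 0.236). The other 2 Etv5 probe sets moved by 0.026 and 0.31, and its call also ended with the mean of the 3 (adjusted p = 0.947) and with a replicate block (adjusted p = 0.0625). Fgf8, the ridge signal, lay at 5.11 and 6.17 and then at 5.90 and 7.43, with overlap, and did not pass (1.02 ± 0.45, adjusted p = 0.137).

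BMP pathway genes had 3 rises and 2 falls among 23, against 10.4% and 8.22% of all genes. Their median was -0.08, and -0.19 without both replicate 2 arrays. Chrdl1, a BMP antagonist gene, fell from 8.04 and 7.99 to 6.97 and 7.50 (-0.78 ± 0.16, adjusted p = 0.0101), a fall of -0.51 without the first array of 13.5 dpc (adjusted p = 0.0504). The inhibitory SMAD gene Smad7 rose by 0.62 ± 0.13 and the ligand gene Bmp7 by 0.50 ± 0.11 (adjusted p = 0.0118 and 0.0134). Without the first array of 13.5 dpc Smad7 and Bmp7 missed the threshold (adjusted p = 0.0704 and 0.0784), as did Bmp7 without the second of 12.5 dpc (adjusted p = 0.052). Of 16 retinoid genes 2 rose (median 0.25), the retinol uptake receptor gene Stra6 (8.51 and 8.30 at 12.5 dpc, both below the arrays of 13.5 dpc; 0.70 ± 0.12, adjusted p = 0.00505) and the retinoic acid degrading enzyme gene Cyp26a1 (0.64 ± 0.13, adjusted p = 0.00868; adjusted p = 0.0596 without the first array of 13.5 dpc). The retinoic acid synthesis gene Aldh1a2 lay at 10.72 and 9.90 and then at 11.32 and 10.03, and the receptor gene Rarb at 8.12 and 5.99 and then at 8.96 and 8.26. Neither passed (adjusted p = 0.527 and 0.0673), and both were lower in replicate 2 of each stage.

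Digit separation and cell death genes had 5 rises and 3 falls among 14 (median 0.29), against 10.4% and 8.22% of all genes. Bak1, an effector of mitochondrial cell death, rose from 7.45 and 7.64 to 8.86 and 8.78 (1.27 ± 0.10, adjusted p = 0.000357), and the arrays of each stage lay close together. Mmp11, a matrix protease gene of regressing interdigits, rose from 9.31 and 8.78 to 10.02 and 9.65 (0.79 ± 0.17, adjusted p = 0.0115), and Mmp2, another matrix protease gene, rose by 0.56. Apaf1, the apoptosome scaffold gene, fell from 10.34 and 9.99 to 9.42 and 9.66 (-0.62 ± 0.13, adjusted p = 0.0101), and Bcl2l11, which encodes the pro-death protein Bim, fell by 0.38. The other Apaf1 probe set, with a mean of 9.23, moved by -0.08. Mmp11 and Apaf1 missed the threshold without the first array of 13.5 dpc (adjusted p = 0.0828 and 0.0682).

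Of 20 surface ectoderm genes 11 rose and 0 fell in the limma fit (median 0.67, against 0.04 over all genes), where 10.4% of all genes rose. For 16 both 13.5 dpc arrays lay above both 12.5 dpc arrays, as for 29.6% of all genes. Without both replicate 2 arrays the median was 0.54, and in WT 16 rose (median 1.13). Krt1, a keratin gene of suprabasal layers, rose from 6.47 and 5.87 to 7.66 and 7.73 (1.53 ± 0.24, adjusted p = 0.00364). Cldn6, a tight junction gene of embryonic epithelia, rose from 6.91 and 7.41 to 8.40 and 8.53 (1.30 ± 0.20, adjusted p = 0.00311). The epithelial adhesion gene Epcam rose from 9.03 and 9.24 to 9.68 and 9.85 (0.63 ± 0.12, adjusted p = 0.00739). The basal keratin gene Krt14 lay at 9.95 and 9.37 and then at 10.70 and 10.41 (0.89 ± 0.27, adjusted p = 0.0423). Its call and those of Krt15 (1.22 ± 0.35) and Krt17 (1.06 ± 0.32) ended without the second array of 12.5 dpc (adjusted p = 0.129 to 0.179), the first of 13.5 dpc (0.153 to 0.229) or the second of 13.5 dpc (0.0616 to 0.0911), and that of Krt17 without the first of 12.5 dpc (0.0515).

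Of 15 erythroid genes 1 fell, against 8.22% of all genes, and 13 had a change below 0 (median -0.38). With both replicate 2 arrays left out, the median was -0.56. Hbb-bh1 went from 12.90 and 13.86 to 10.48 and 12.91 (-1.69 ± 0.60, adjusted p = 0.0764), with the second array of 13.5 dpc level with the first of 12.5 dpc, against a WT change of -4.62. Slc4a1, the red cell anion exchanger gene, fell from 9.26 and 9.87 to 7.60 and 8.92 (-1.30 ± 0.35, adjusted p = 0.029). Without the first array of 13.5 dpc it was -0.65 (adjusted p = 0.157), and the call also ended without the second of 12.5 dpc (adjusted p = 0.119). In both stages the second array was above the first over this list, by a median of 0.59 and 0.86.

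Of 17 endothelial genes 3 rose and 0 fell (median 0.02), against 10.4% and 8.22% of all genes, among them Prox1, the lymphatic factor gene, from 3.98 and 3.51 to 4.65 and 4.73 (0.94 ± 0.14, adjusted p = 0.00247), all below the median of all values. Of 20 macrophage genes 2 rose (median 0.17), a share near that of all genes, Lyz2 by 0.46 ± 0.12, which lost the call without the first array of either stage or the second of 13.5 dpc (adjusted p from 0.0598 to 0.102), and the complement gene C1qc by 0.40 ± 0.09. Of 13 neuronal genes 0 passed in the limma fit (median 0.09), and the median was 0.22 without both replicate 2 arrays. The largest change was 1.01 for Nefl (limma adjusted p = 0.0922). In the Schwann and melanocyte list 1 of 14 rose and 1 fell, and the median was 0.05 with all arrays and 0.15 without both replicate 2 arrays. The neural crest factor gene Sox10 lay at 7.34 and 6.56 and then at 7.86 and 7.66 (0.81 ± 0.20, adjusted p = 0.0216), and was at 0.42 without the second array of 12.5 dpc (adjusted p = 0.0524) and past no threshold without the first of 13.5 dpc (adjusted p = 0.128).

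The mean log2 level over each marker list was also taken in each array. The sarcomere list had means of 9.30 and 7.68 at 12.5 dpc and of 7.46 and 7.67 at 13.5 dpc, so the second array of 12.5 dpc was nearer to the later stage than to its replicate. The ectoderm list had means of 7.77 and 7.65 and then of 8.32 and 8.41, apart by stage. The erythroid list had 8.08 and 8.81 and then 7.45 and 8.39, and the cartilage list 9.15 and 8.31 and then 9.14 and 8.70, both apart by replicate more than by stage. Macrophage means lay between 7.03 and 7.25, endothelial means between 7.72 and 7.94, neuronal means between 6.04 and 6.26 and Schwann and melanocyte means between 5.94 and 6.26. Of the list members, 25 of 30 sarcomere, 18 of 22 cartilage, 11 of 15 erythroid, 17 of 20 macrophage, 15 of 17 endothelial, 19 of 20 ectoderm, 7 of 13 neuronal and 5 of 14 Schwann and melanocyte genes had a mean above the median of all values, as did 63.5% of all genes.

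Of 14 forkhead genes 6 rose and 0 fell in the limma fit (median 0.55), against 10.4% and 8.22% of all genes. Foxp4 went from 9.22 and 8.63 to 10.46 and 9.94 (1.28 ± 0.20, adjusted p = 0.00341) and Foxq1 from 5.80 and 5.71 to 6.68 and 6.41 (0.79 ± 0.16, adjusted p = 0.0109). Foxm1, a mitotic regulator gene, went from 8.81 and 8.95 to 9.56 and 9.37 (0.58 ± 0.10, adjusted p = 0.00512). Its other probe sets moved by 0.45, 0.14 and, on a dim one, 0.09. Foxp1 rose by 0.81 ± 0.20 and by 0.45 without the second array of 12.5 dpc (adjusted p = 0.0882), and its 7 other probe sets moved between -0.65 and 1.51. Foxp2 rose by 0.94 ± 0.29 and by 0.34 without the second array of 12.5 dpc (adjusted p = 0.142). Without the first array of 13.5 dpc, Foxp1, Foxp2 and Foxq1 missed the threshold (adjusted p = 0.161, 0.244 and 0.0784), and Foxp2 did so without the second (adjusted p = 0.0627).

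Among growth and imprinted genes 4 of 17 rose and 2 fell, against 10.4% and 8.22% of all genes. The median was 0.08, and -0.25 without both replicate 2 arrays. Igf2r, the clearance receptor for Igf2, fell from 11.52 and 11.08 to 10.55 and 10.13 (-0.96 ± 0.17, adjusted p = 0.00642), while its other probe set moved by -0.13. The binding protein gene Igfbp4 rose from 13.09 and 12.90 to 13.72 and 13.68 (0.70 ± 0.09, adjusted p = 0.00175). Among 24 guidance genes 3 rose and 4 fell, shares to set beside the same 10.4% and 8.22%. The guidance median was -0.02, and -0.29 without both replicate 2 arrays. Besides Robo2, the ephrin receptor gene Epha3 fell from 10.84 and 10.91 to 9.76 and 9.89 (-1.04 ± 0.09, adjusted p = 0.000357), and the semaphorin receptor gene Nrp1 fell by 0.52 (SE 0.11, adjusted p = 0.0111; 0.0593 without the first array of 13.5 dpc), while 2 of its 3 other probe sets moved by 0.16 and 0.27.

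Proliferation and stress genes showed few calls. Of 26 cell cycle genes 1 rose and 1 fell (median -0.11), against 10.4% and 8.22% of all genes. Mki67, a marker of cycling cells, went from 12.12 and 12.14 to 11.73 and 11.79 (-0.37 ± 0.09, adjusted p = 0.0203), with adjusted p of 0.0548 and 0.0817 without the second array of 12.5 dpc and the first of 13.5 dpc. Of 20 heat shock and immediate early genes 1 rose and 1 fell, against the same shares. Their median was -0.01, and -0.03 without both replicate 2 arrays. Fos fell from 7.25 and 7.48 to 6.55 and 6.66 (-0.76 ± 0.12, adjusted p = 0.00347) and Ier3 rose by 0.50 ± 0.13, a call that ended without any 1 KO array (adjusted p from 0.0529 to 0.0928). Hspa1a did not pass (-1.85 ± 0.94, adjusted p = 0.194). Of 12 hypoxia and glycolysis genes 2 fell (median -0.05), the glucose transporter gene Slc2a1 from 10.88 and 11.34 to 10.01 and 10.35 (-0.93 ± 0.16, adjusted p = 0.00485) and Aldoa by 0.40 (SE 0.09; adjusted p = 0.0601 and 0.0878 without the second array of 12.5 dpc and the first of 13.5 dpc). Of the other Aldoa probe sets 1 rose (0.43, adjusted p = 0.0303 over all probe sets). The other Slc2a1 probe sets moved by -0.89 and -0.12.

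Calls of some named genes ended when all probe sets of a gene were averaged. This was so for 27 of the 113, among them Lmx1b, Lhx9, Hoxa10, Hoxb3, Tnnc1 and Krt17 (adjusted p from 0.0501 to 0.0853) and Col25a1, Apaf1, Cd44 and Smo (adjusted p from 0.0707 to 0.0887). Pax9, Wnt9a, Smad7, Nrp1, Aldoa, Slc4a1, Foxp2 and Foxq1 were further from the threshold (adjusted p from 0.128 to 0.332). With a replicate block 10 calls ended, including those of Tnnc1, Col10a1, Krt14, Krt15 and Krt17 (adjusted p from 0.0502 to 0.0625).

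**Figure D4:**
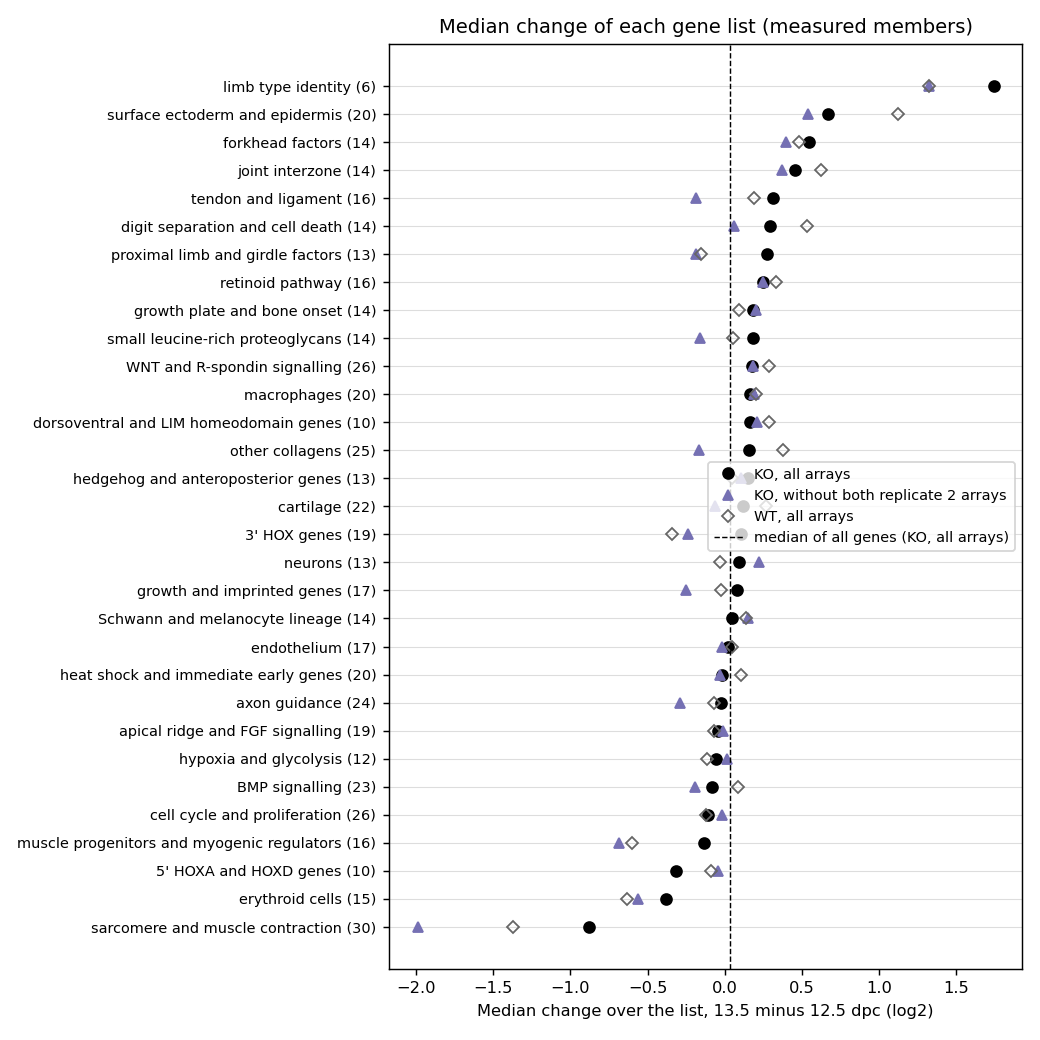
Median change from 12.5 to 13.5 dpc (log2, horizontal axis) over the measured members of 31 gene lists, with the number of members in brackets. Circles are KO limbs with all arrays, triangles KO limbs without both replicate 2 arrays, open diamonds WT limbs, and the dashed line the median of all genes in KO limbs (0.04). The sarcomere median moves from -0.88 to -1.99 without the replicate 2 arrays, and the tendon and proximal limb medians are among those that change sign.

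In WT limbs 4598 genes changed over the same interval (25.3%; 2635 or 14.5% higher and 1963 or 10.8% lower). Of the 3382 genes called in KO limbs, 2251 were called in the same direction in WT, which is 66.6% of the KO calls and 49.0% of the WT calls, and 4 were called in the opposite direction. The KO and WT groups share no arrays. Without both KO replicate 2 arrays, which enter the shared estimate of the spread, 6940 genes passed in WT (38.1%). The difference between the KO and the WT change passed for 0 of 18193 genes (0%; limma, smallest adjusted p = 0.339), and 1546 genes had an unadjusted p under 0.05. Without both KO replicate 2 arrays 9 genes passed (0.0495%), 1 with a KO change above that of WT (0.0055%) and 8 below (0.044%), without the first KO array of 12.5 dpc 46 and without the second 15.

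The genes with the smallest p for this difference were chosen by that p, so their values are a description. Foxf2, a forkhead gene of mesenchyme, lay at 4.13 and 4.39 and then at 4.68 and 4.85 in KO limbs, and at 4.52 and 4.39 and then at 6.41 and 6.14 in WT (difference of the changes -1.31). The KO values of Foxf2 were all below the median of all values (6.28). Its KO rise of 0.51 ± 0.12 ended as a call without the first array of 12.5 dpc or the second of 13.5 dpc (adjusted p = 0.0784 and 0.0741). Calb2, encoding calretinin, lay at 6.30 and 6.06 and then at 7.41 and 7.74 in KO limbs, and at 6.31 and 6.95 and then at 6.27 and 6.13 in WT (1.82). Gata6, a GATA factor gene, lay at 5.46 and 5.61 and then at 6.26 and 6.43 in KO limbs and at 5.87 and 5.81 and then at 5.35 and 5.66 in WT (1.14). The remaining 2 were 1700019D03Rik (-0.96) and the chloride channel gene Clcn2 (-0.79). Emx2, Sim2 and Pax9 also had a larger change in KO than in WT limbs (1.72 against 0.59, 1.80 against 0.30 and -1.18 against -0.12), and none of these differences passed.

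**Figure D5:**
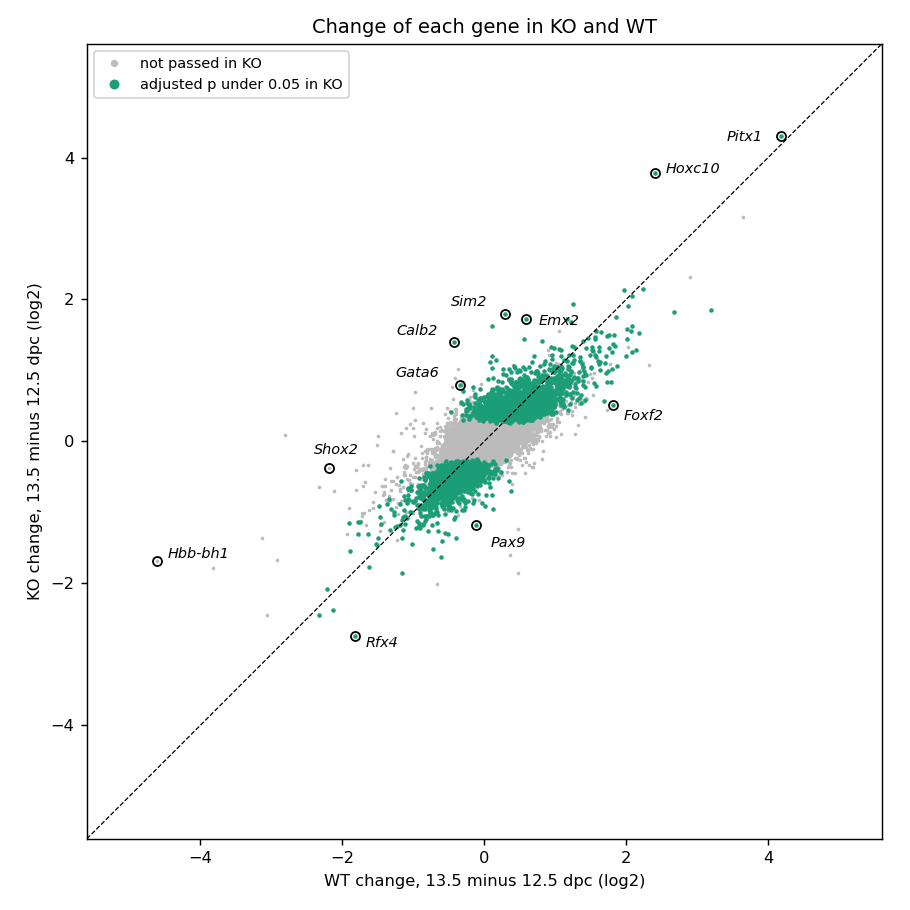
Change from 12.5 to 13.5 dpc of each of 18193 genes in KO limbs (vertical axis, log2) against WT limbs (horizontal axis, log2), with the dashed line at equal change and genes called in KO limbs in green. Pitx1 lies near the line (4.30 and 4.18), Hbb-bh1 (-1.69 and -4.62) and Shox2 (-0.38 and -2.19) above it and Foxf2 (0.51 and 1.82) below it, and no difference between the changes passed the test.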

How the data were processed

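RNA of 12 pools of embryonic limbs was read on Affymetrix Mouse Genome 430 2.0 arrays. The deposited values are log2 expression values made by the authors with RMA, per the submitters' processing notes, with the version not given in the sources used here. Of 45101 probe sets, 34945 named 1 gene in the platform annotation (932 named several, 9160 none, 64 were controls). For each of 18193 genes the probe set of highest mean across all 12 arrays was used. Group means of all 12 arrays were fitted with limma 3.58.1 in R 4.3.3 (6 residual degrees of freedom, two-sided tests, Benjamini-Hochberg adjustment over all genes, threshold 0.05), so all groups share 1 estimate of the spread. SEs come from this fit, which was tested on simulated data. The simulation gave every group the same spread, so it does not cover the wider spread of the KO pairs. With 2 pools per group, p-values measure the spread between pools averaged over the 6 groups, and the number of arrays limits the precision. Replicates of the KO groups compared here differed by 0.356 and 0.267 log2 units, against 0.140 to 0.237 in the other groups. For the KO change, SEs and p-values therefore understate the spread on average. Levels are not compared between probe sets.

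Named genes were the markers set by rule, up to 12 leading genes in each direction, the 5 with the smallest p for the KO and WT difference, and up to 5 members of each of 32 lists (576 entries, 536 measured); genes beyond these were chosen after their values were seen. The members and lists were chosen with earlier results of these data known, and no set test was run. Of 113 named genes that passed, 71 had 127 further probe sets, of which 102 moved with the same sign. Promoters were taken from RefSeq by gene ID. The probe set rule, normalization, filter, prior, weights, arrays entered and a replicate block were varied.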

Additional observations from a re-analysis of the deposited data

How the results depend on the processing

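With array quality weights 496 genes passed for the KO change, from the 8 arrays of 12.5 and 13.5 dpc 1455 and from the 4 KO arrays alone 8; leaving out 1 KO array at a time gave between 1554 (without the first of 13.5 dpc) and 3864 (without the second). Under the other alternatives the count was within 1.5 times of 3382. The WT count was between 1663 and 3067 without 1 WT array, 6940 without both KO replicate 2 arrays and 2681 from the 8 arrays. For the difference between KO and WT, 0 to 46 genes passed without 1 array and 9 without both KO replicate 2 arrays. The replicate numbers name pools of different embryos and pair no samples (correlation of same-numbered deviations 0.106 between the KO stages); with a replicate block 3186 genes passed for KO, 4457 for WT and 0 for the difference. Of the 113 named genes that passed, 7 kept the call under all 14 alternatives and 47 without each KO array in turn; 55 kept it without the first array of 13.5 dpc, 91 without both replicate 2 arrays and 40 with quality weights, and 0 reversed. For the 113, a reversal was not possible where KO arrays were left out, since their arrays of the stages did not overlap. Reversals among the 34 named genes that had not passed were as follows. Without both replicate 2 arrays the change was -0.56 for Meis1, -0.35 for Meis2, -0.092 for Shh, 0.31 for Hspa1a, -0.33 for Lum, -0.097 for Kera and -1.16 for Pax7, and Shh was at -0.0054 after renewed quantile normalization. Leaving out 1 KO array at a time gave the lowest and highest changes Meis1 (-0.37 to 1.32), Hoxd13 (-0.21 to 0.36), Shh (-0.38 to 0.62), Hspa1a (-3.96 to 0.26), Hemgn (-2.73 to 0.00033), Shox2 (-1.13 to 0.37), Kera (-0.081 to 1.33), Acan (-0.28 to 1.10), Col2a1 (-0.11 to 0.52), Myod1 (-0.57 to 0.069), Pax7 (-0.49 to 0.85), Aldh1a2 (-0.28 to 1.01) and Rspo1 (-2.14 to 0.51). These changes did not pass with all arrays, and the cause of each shift was not tested.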

Other observations

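Some leading genes had moved the other way between 11.5 and 12.5 dpc in KO limbs. That comparison shares the KO arrays of 12.5 dpc with the one above, so values are only set side by side. Sim2 changed by -2.87 from 11.5 to 12.5 dpc and by 1.80 from 12.5 to 13.5 dpc, Cyb561 by -1.86 and 1.90, and Klhl42 by -1.50 and 1.72. Cep295 changed by 1.73 and then by -1.62, Slc16a4 by 1.66 and -1.52, and Snhg14 by 1.45 and -1.76. Neither Fgf8 nor Meis1 is a leading gene, and neither passed from 12.5 to 13.5 dpc (limma adjusted p = 0.137 and 0.438). Fgf8, the apical ridge signal, changed by -2.13 and 1.02, and Meis1 by -1.73 and 0.48. Without the second array of 13.5 dpc their later changes were 0.26 and -0.37.

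Rspo1, an R-spondin gene, lay at 7.76 and 5.83 in the KO arrays of 12.5 dpc and at 4.65 and 7.31 in those of 13.5 dpc, so that each stage held a high and a low array. Its change was -0.82 ± 0.74 (limma adjusted p = 0.469) with all arrays and -3.11 without both replicate 2 arrays. Frzb, a secreted WNT inhibitor gene, lay at 9.98 and 10.84 and then at 9.01 and 10.40, and in WT at 9.95 and 9.97 and then at 7.90 and 7.80. Hemgn, an erythroid gene, lay at 6.90 and 9.54 and then at 5.49 and 8.22, with replicate 2 above replicate 1 at both stages, and in WT at 7.38 and 8.04 and then at 4.55 and 4.60.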
